A study of Mus musculus with 12 samples.

Results

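The genes described are 10 markers of fibroblasts and smooth muscle: Postn, Dcn, Lum, Thy1 and Sparc, which belong to connective tissue and its matrix, Acta2, Tagln and Cnn1, which belong to contractile cells, and the receptors Pdgfra and Pdgfrb. They were named in a list and matched by Ensembl identifier, among 55487 genes counted in 12 libraries. All 10 passed the filter on low counts, which left 18109 genes for testing. Results of these data, above all the difference between doxycycline and control libraries at day 2, were known when the list was made. The day 2 values are therefore given as a description with no p-value.

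Fibroblasts make the fibrous matrix between tissues. Collagen fibrils form their main product, and small leucine-rich proteoglycans such as decorin and lumican control the width of these fibrils. Matricellular proteins such as periostin and SPARC bind the matrix and act on cells rather than bearing load. Smooth muscle cells share much of this program and add an actin-based contractile apparatus. Its genes are classic targets of serum response factor (SRF) and myocardin, and in the early embryo several of them are also transcribed in heart and somite muscle. Platelet-derived growth factor (PDGF) acts on mesenchymal cells through its receptors alpha and beta, and the alpha receptor is also known from primitive endoderm and paraxial mesoderm. Mouse embryonic fibroblasts are a usual feeder layer for pluripotent cells. The labels of these samples name no feeder layer.

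The samples were embryoid bodies, floating aggregates that differentiate, made from mouse epiblast stem cells (EpiSCs) derived in vitro from embryonic stem cells. All 4 groups carried an inducible FLAG-Mixl1 transgene. Mixl1 is a homeobox factor of the primitive streak. NoDox_d2 and NoDox_d4 had no doxycycline and were collected at days 2 and 4, and D1Dox_d2 and D3Dox_d4 were collected on the same days after doxycycline at 1 µg/mL. What the number after D stands for is not said in the labels. No group without the transgene received the drug, so effects of doxycycline itself and of Mixl1 cannot be told apart. The labels name neither a clone nor the sex of the line. Each group had 3 libraries, and nothing in the labels says that they came from separate cultures, so any p-value measures the spread between these libraries only, which may be technical.

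Total counts ranged from 24100487 to 28020036 per library, and levels are given as CPM (counts scaled to the size of the library) with TMM library sizes. At this depth 3 counts equal 0.106 to 0.130 CPM. Mixl1 was at 362 to 392 CPM in D1Dox_d2, 418 to 478 CPM in D3Dox_d4 and 1.11 to 1.83 CPM in NoDox_d4. Within NoDox_d2, Mixl1 stood at 91.0 CPM in replicate 1 but at 0.593 and 1.15 CPM in replicates 2 and 3. Whether the Mixl1 reads of replicate 1 came from the transgene or from the cells' own gene was not tested. Replicate 1 of both NoDox groups also stood apart over all genes. Its correlation with replicates 2 and 3 of its own group was 0.957 to 0.961, where those correlated with each other at 0.990 to 0.991. Results that rest on these libraries are given with and without them.

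The 10 genes did not share one pattern, so the common label covers 3 kinds of behaviour. Matrix and surface genes (Postn, Dcn, Lum, Thy1 and Sparc) were highest in all 3 libraries of D1Dox_d2. Contractile genes (Acta2, Cnn1 and Tagln) were at their highest at day 2 with or without doxycycline and were lowest in D3Dox_d4. The PDGF receptors were high in replicate 1 of both NoDox groups, and Pdgfrb was high in all 3 libraries of D1Dox_d2 as well. The plot of levels in every library shows these patterns gene by gene.

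Postn, which encodes periostin, a matricellular protein of healing and remodelling tissue, had a day 2 log2 fold change of 3.36 ± 0.29 (SE). Its gene lies on chromosome 3 from 54361109 to 54391037, plus strand (GRCm38, as all positions here). Postn was at 6.74, 7.71 and 8.74 CPM in NoDox_d2 replicates 1 to 3 and at 76.0, 67.2 and 94.4 CPM in D1Dox_d2. The day 2 groups did not overlap, and the means were 7.73 ± 0.998 (SD, n = 3) and 79.2 ± 13.9 CPM (SD, n = 3). Without NoDox_d2 replicate 1 the log2 fold change was 3.25. At day 4 Postn was at 7.93, 4.03 and 3.11 CPM in NoDox_d4 and at 4.99, 4.94 and 5.97 CPM in D3Dox_d4. These libraries overlapped, and every one of them except NoDox_d4 replicate 1 was below the lowest NoDox_d2 library.

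Dcn and Lum lie near each other on the plus strand of chromosome 10, Dcn from 97479609 to 97518143 and Lum from 97565128 to 97572703. Dcn encodes decorin, which also binds TGF-beta. It was at 4.41, 2.02 and 2.05 CPM in NoDox_d2 and at 17.4, 14.9 and 18.4 CPM in D1Dox_d2, a log2 fold change of 2.58 ± 0.52. Every D1Dox_d2 library was above every NoDox_d2 library. At day 4 Dcn was at 10.9, 2.44 and 3.50 CPM in NoDox_d4 and at 1.37, 0.738 and 1.35 CPM in D3Dox_d4, so here the doxycycline libraries were the lower ones.

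Lum encodes lumican, the proteoglycan known for the transparency of the cornea. It was at 4.41, 0.751 and 1.49 CPM in NoDox_d2 and at 22.5, 15.95 and 21.8 CPM in D1Dox_d2, a log2 fold change of 3.17 ± 0.62. Without NoDox_d2 replicate 1, which held the most Lum of its group, the log2 fold change was 4.14. At day 4 Lum was at 3.23, 0.773 and 1.04 CPM in NoDox_d4 and at 5.06, 2.99 and 5.41 CPM in D3Dox_d4. The highest NoDox_d4 library, replicate 1, lay just above the lowest D3Dox_d4 library. Lum was thus the matrix gene whose D3Dox_d4 mean, 4.49 ± 1.31 CPM (SD, n = 3), held the second rank among the groups.

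Thy1 encodes CD90, a surface glycoprotein of fibroblasts that neurons and T cells also carry. The gene lies on chromosome 9 from 44043384 to 44048579, plus strand. It was at 10.8, 16.6 and 13.9 CPM in NoDox_d2 and at 37.8, 37.8 and 46.0 CPM in D1Dox_d2, a log2 fold change of 1.56 ± 0.17 with no overlap. At day 4 it was at 7.42, 8.46 and 8.57 CPM in NoDox_d4 and at 8.50, 11.1 and 10.2 CPM in D3Dox_d4, which overlapped.

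Sparc encodes a collagen-binding glycoprotein that parietal endoderm makes in large amounts as well as fibroblasts. It lies on chromosome 11 from 55394500 to 55423183, minus strand. It was at 392, 349 and 354 CPM in NoDox_d2 and at 729, 755 and 784 CPM in D1Dox_d2. The log2 fold change, 1.05 ± 0.09, was the smallest of the 5 matrix and surface genes, and its D1Dox_d2 replicates were the closest together. At day 4 Sparc was at 237, 265 and 244 CPM in NoDox_d4 and at 266, 260 and 291 CPM in D3Dox_d4, which overlapped.

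Over the 10 genes, 6 passed an adjusted p under 0.05 at day 2, namely the 5 matrix and surface genes as higher and Cnn1 as lower, where 28.4% of all tested genes passed. Groups that did not overlap were found for 7 of the 10 as higher and 1 as lower, against a background of 23.9% and 22.1% of tested genes. The median log2 fold change of the 10 was 1.20, and that of all tested genes was −0.03. Since this comparison was in view when the genes were chosen, nothing is read from these counts. With both NoDox libraries numbered 1 left out, the count was 8, 7 higher and 1 lower, where 53.2% of tested genes passed. Cnn1 did not pass when any D1Dox_d2 replicate, or NoDox_d2 replicate 2 or 3, was left out.

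Sex-linked transcripts, listed as marks of cells from another source, were highest in the same D1Dox_d2 libraries. Xist, the RNA of the inactive X chromosome, was at 12.1, 15.9 and 19.7 CPM in D1Dox_d2, 1.00 to 2.01 CPM in NoDox_d2, 0.473 to 0.615 CPM in NoDox_d4 and 0.0796 to 0.627 CPM in D3Dox_d4. The sum of 8 Y-linked genes was at 5.00, 4.15 and 5.29 CPM in D1Dox_d2, 0.277 to 1.06 CPM in NoDox_d2, 0.0384 to 0.610 CPM in NoDox_d4 and at 0, 0.221 and 0 CPM in D3Dox_d4. Of the sex-linked list of 9 genes (Xist and those 8), 4 were tested and all 4 were past the threshold as higher at day 2. Of all tested genes 14.9% were past it as higher. Usp9y, Zfy1, Zfy2 and Sry were at 0 in all libraries. Each D1Dox_d2 library thus held Xist and Y-linked RNA side by side.

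Of the immune genes listed, Lyz2 and Ptprc followed the same order. Lyz2, a lysozyme of macrophages and granulocytes, was at 253, 183 and 184 CPM in D1Dox_d2, 18.4 to 84.0 CPM in NoDox_d2, 12.9 to 22.1 CPM in NoDox_d4 and 8.06 to 12.8 CPM in D3Dox_d4. Ptprc, the pan-leukocyte surface phosphatase, ranged from 2.44 to 3.37 CPM in D1Dox_d2, and no other library exceeded 0.812 CPM. Of the list of 7 blood and T cell markers 3 were tested and 2 were past the threshold as higher at day 2, where 14.9% of all tested genes were. The other genes of the list were at 0.521 CPM or less in every library and did not share this order. Cd8a, for one, was at up to 0.521 CPM in NoDox_d2 and 0.303 to 0.417 CPM in D1Dox_d2. The summed level of that list was 186 to 257 CPM in D1Dox_d2 and 19.5 to 85.1 CPM in NoDox_d2. It was 13.3 to 22.8 CPM in NoDox_d4 and 8.17 to 13.4 CPM in D3Dox_d4, and nearly all of it was Lyz2.

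The size of the day 2 difference can be set beside these transcripts as ratios of group means. The D1Dox_d2 mean over the NoDox_d2 mean was 10.8 for Xist, 7.34 for the Y-linked sum, 4.87 for Lyz2 and 5.45 for Ptprc. For the marker genes it was 10.2 for Postn, 9.05 for Lum, 5.98 for Dcn, 2.94 for Thy1 and 2.07 for Sparc. Without NoDox_d2 replicate 1, a mean chosen after seeing the data, the ratio was 13.3 for Xist, 10.6 for the Y-linked sum, 9.55 for Lyz2 and 7.10 for Ptprc. For the marker genes it was then 17.9 for Lum, 9.63 for Postn, 8.32 for Dcn, 2.65 for Thy1 and 2.15 for Sparc. Thy1 and Sparc thus had lower ratios than these transcripts with and without that library. The places of Lum, Postn and Dcn among them depended on it. The D1Dox_d2 mean over the D3Dox_d4 mean was 56.0 for Xist, 65.2 for the Y-linked sum, 19.5 for Lyz2 and 23.95 for Ptprc. It was 14.9 for Postn, 14.6 for Dcn, 4.47 for Lum, 4.09 for Thy1 and 2.77 for Sparc. Within D1Dox_d2, replicate 3 was the highest of the 3 for 8 of the 10 genes, and also for Xist and the Y-linked sum, while Lum, Lyz2 and Ptprc were highest in replicate 1. The part of cells of another source in the level of each gene was not tested. In bulk RNA, more cells of a type and more RNA per cell cannot be told apart.

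**Figure D1:**
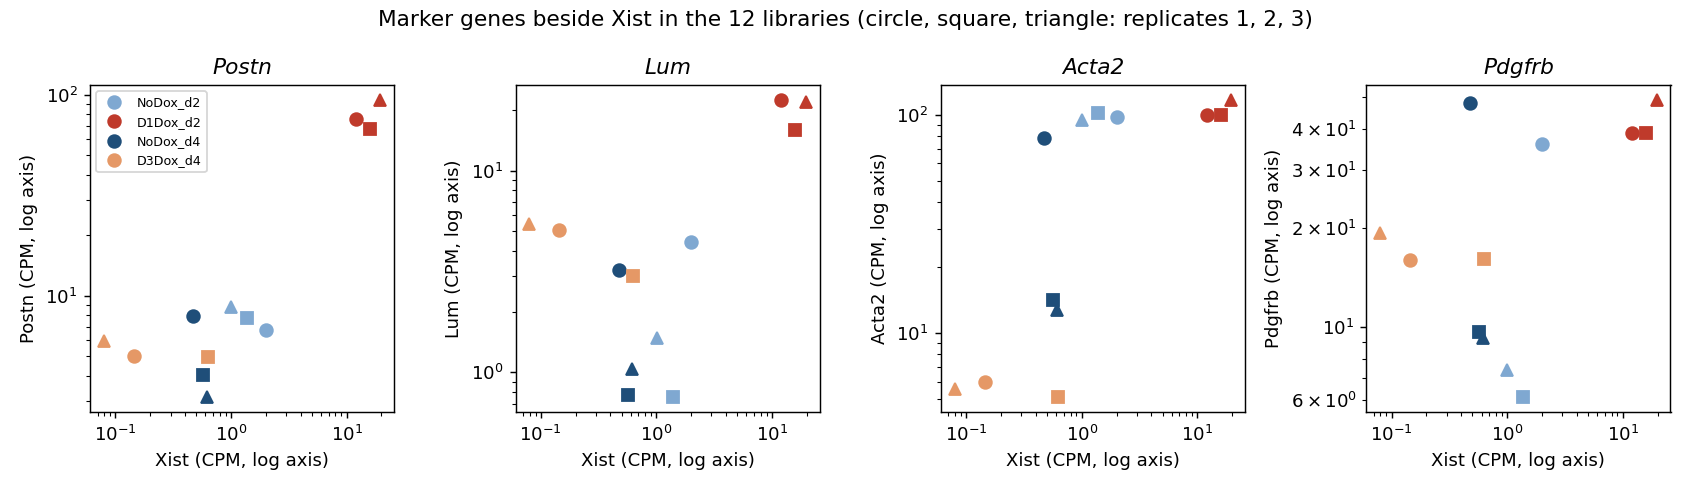
Levels of Postn, Lum, Acta2 and Pdgfrb against Xist (CPM, both axes log) in the 12 libraries, coloured by group, with circles, squares and triangles for replicates 1, 2 and 3. Postn is high only where Xist is at 12.1 to 19.7 CPM, whereas Acta2 is near 100 CPM also in the NoDox_d2 libraries with Xist at 1.00 to 2.01 CPM and Pdgfrb is at 48.0 CPM in NoDox_d4 replicate 1 with Xist at 0.473 CPM.

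The contractile genes were near their highest in NoDox_d2 as well. Acta2 encodes smooth muscle alpha-actin, which the embryonic heart also makes, and lies on chromosome 19 from 34241090 to 34255590, minus strand. It was at 97.3, 102 and 94.5 CPM in NoDox_d2 and at 99.4, 99.9 and 117 CPM in D1Dox_d2, and these groups overlapped. The NoDox_d2 libraries reached this level with Xist at 1.00 to 2.01 CPM, and the log2 fold change at day 2 was 0.10 ± 0.51. At day 4 Acta2 was at 77.9, 14.2 and 12.8 CPM in NoDox_d4 and at 5.97, 5.09 and 5.53 CPM in D3Dox_d4. Every D3Dox_d4 library was below every NoDox_d4 library, of which replicate 1 was far above replicates 2 and 3.

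Cnn1 encodes calponin, an actin-binding protein that damps contraction, and lies on chromosome 9 from 22099216 to 22109630, plus strand. It was at 48.3, 74.5 and 79.3 CPM in NoDox_d2 and at 37.2, 35.6 and 41.5 CPM in D1Dox_d2, a log2 fold change of −0.82 ± 0.25. It was the only one of the 10 whose D1Dox_d2 libraries were all below the NoDox_d2 libraries. At day 4 it was at 8.64, 6.51 and 4.50 CPM in NoDox_d4 and at 1.77, 2.80 and 3.10 CPM in D3Dox_d4. These groups did not overlap either, and Cnn1 spanned the widest range of group means of the 10, 26.3-fold from D3Dox_d4 to NoDox_d2.

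Tagln encodes transgelin (SM22), a calponin relative, and was close to the detection limit at day 4. It lies on chromosome 9 from 45929619 to 45936058, minus strand. It was at 1.62, 1.58 and 1.64 CPM in NoDox_d2, at 1.97, 3.05 and 2.64 CPM in D1Dox_d2, at 1.14, 0.244 and 0.500 CPM in NoDox_d4 and at 0.145, 0.148 and 0.279 CPM in D3Dox_d4. The D3Dox_d4 values rest on 4, 4 and 7 counts. In the annotation, 67.9% of the exon bases of Tagln overlap Pcsk7 and Gm48529 on the opposite strand. Within the overlap, counting without strand cannot tell their reads apart. Whether this raised or lowered the Tagln counts was not tested.

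Counts of Acta2 may be uncertain in another way, since Actc1, Acta1 and Actg2 encode near-identical actin proteins. Whether reads of these genes were assigned to each other was not tested. Actc1, the cardiac actin, was at 62.3, 67.3 and 65.6 CPM in NoDox_d2, 80.8, 69.5 and 77.2 CPM in D1Dox_d2, 25.5, 8.54 and 6.96 CPM in NoDox_d4 and 2.21, 2.40 and 2.71 CPM in D3Dox_d4. It fell at day 4 by 2.49 ± 0.41 on the log2 scale (edgeR adjusted p = 0.00117). Acta1, the skeletal actin, was at 18.9 to 38.1 CPM in NoDox_d2 and 45.9 to 55.2 CPM in D1Dox_d2, and was at 5.80 CPM or less at day 4. Actg2, the enteric smooth muscle actin, was at 1.42 CPM or less throughout. The actins of heart and skeletal muscle had the same order over the 4 groups as Acta2, with both day 2 groups above both day 4 groups.

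The PDGF receptors depended on single libraries. Pdgfra lies on chromosome 5 from 75152292 to 75198215, plus strand, with 6.21% of its exon bases under genes of the opposite strand. It was at 22.4, 6.92 and 6.02 CPM in NoDox_d2, 12.6, 15.2 and 17.5 CPM in D1Dox_d2, 51.9, 8.90 and 10.4 CPM in NoDox_d4 and 10.1, 10.3 and 11.3 CPM in D3Dox_d4. NoDox replicate 1 was the highest library of its day at both times. The day 2 log2 fold change was 0.36 ± 0.63, and 1.21 without NoDox_d2 replicate 1.

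Pdgfrb, the receptor of pericytes and smooth muscle precursors, was at 35.8, 6.13 and 7.40 CPM in NoDox_d2, 38.9, 38.9 and 49.0 CPM in D1Dox_d2, 48.0, 9.68 and 9.30 CPM in NoDox_d4 and 15.9, 16.1 and 19.3 CPM in D3Dox_d4. NoDox_d2 replicate 1 lay just under the D1Dox_d2 libraries, and NoDox_d4 replicate 1 among them. The day 2 log2 fold change was 1.36 ± 0.70, or 2.63 without NoDox_d2 replicate 1, and 1.85 with the replicate number as a block. It passed the threshold under both of those alternatives.

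Replicate 1 of NoDox_d2 was above the mean of replicates 2 and 3 by a ratio of 5.30 for Pdgfrb, 3.45 for Pdgfra, 3.94 for Lum and 2.17 for Dcn. It was below that mean for Cnn1 (ratio 0.628), Thy1 (0.707) and Postn (0.820). In NoDox_d4 the ratio was 5.79 for Acta2, 5.37 for Pdgfra, 5.06 for Pdgfrb, 3.65 for Dcn, 3.57 for Lum, 3.08 for Tagln and 2.22 for Postn, and it was 0.871 for Thy1 and 0.934 for Sparc. For Xist the ratio was 1.69 in NoDox_d2 and 0.799 in NoDox_d4, and for the Y-linked sum it was 2.33 and 0.487. Lyz2 had a ratio of 3.89 in NoDox_d2 and 1.30 in NoDox_d4. These libraries also stood apart in mesoderm genes. In NoDox_d2 replicate 1 the streak genes T, Tbx6 and Msgn1 were at 1261, 38.3 and 23.2 CPM, and at no more than 142, 4.09 and 0.186 CPM in replicates 2 and 3. In NoDox_d4 replicate 1 the mesenchymal genes Twist1, Prrx1 and Col3a1 were at 111.5, 86.5 and 322 CPM, and at no more than 15.3, 9.43 and 31.3 CPM in the other 2 libraries of that group. The part of such cells in the levels of the 10 genes was not tested.

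The comparison at day 4 asks how the genes differed between D3Dox_d4 and NoDox_d4, libraries that do not enter the day 2 comparison. Dcn, Acta2, Tagln and Cnn1 fell and none of the 10 rose, with 1, Lum, higher at an unadjusted p under 0.05 in edgeR and none called higher by DESeq2. In edgeR's quasi-likelihood test, 4 of the 10 passed, against 23.5% of all tested genes, and 10.2% of tested genes passed as lower. The median log2 fold change was −0.78 for the 10 and −0.03 for all tested genes. The groups did not overlap for 3 of the 10, all lower. Over all tested genes 40.6% had groups that did not overlap, 18.6% with D3Dox_d4 wholly below NoDox_d4 and 22% with it wholly above.

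Among the contractile genes, Acta2 fell by 2.66 on the log2 scale (SE 0.57, edgeR adjusted p = 0.00595), Cnn1 by 1.36 (SE 0.28, adjusted p = 0.00467) and Tagln by 1.71 (SE 0.53, adjusted p = 0.0371). The Acta2 value rests in part on NoDox_d4 replicate 1. With both NoDox libraries numbered 1 left out it was −1.28 (edgeR adjusted p = 8.7e-07). The Tagln call depended on single libraries. It was lost, with an edgeR adjusted p of 0.0519 to 0.166, when NoDox_d4 replicate 1 or 3 or any D3Dox_d4 replicate was left out. The log2 fold change was then −1.55 to −2.07, except without NoDox_d4 replicate 1, where it was −0.97. It was −1.68 with the replicate number as a block (edgeR adjusted p = 0.0617). DESeq2 called Tagln as lower (−1.75, adjusted p = 0.0177).

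Of the matrix and surface genes, Dcn fell by 2.27 on the log2 scale (SE 0.54, edgeR adjusted p = 0.0101). It was −1.36 with both NoDox libraries numbered 1 left out (edgeR adjusted p = 0.000636). Postn differed by 0.08 ± 0.29 (edgeR adjusted p = 0.881), Thy1 by 0.28 ± 0.17 (0.273) and Sparc by 0.13 ± 0.09 (0.308), none past the threshold. Lum differed by 1.41 ± 0.61 (edgeR adjusted p = 0.120). It passed without NoDox_d4 replicate 1 (log2 fold change 2.30, edgeR adjusted p = 0.0199) and with the replicate block (1.61, adjusted p = 0.020).

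The PDGF receptors did not pass at day 4. The log2 fold change was −1.17 ± 0.64 for Pdgfra (edgeR adjusted p = 0.216) and −0.38 ± 0.69 for Pdgfrb (0.737), and both turned positive without NoDox_d4 replicate 1, at 0.13 and 0.85. With both NoDox libraries numbered 1 left out, Pdgfrb was higher by 0.85 (edgeR adjusted p = 0.000268), and the count over the 10 genes became 6, with Postn, Lum and Pdgfrb higher and Dcn, Acta2 and Cnn1 lower. In that fit 38.5% of all tested genes passed. The drop of contractile genes at day 4 came with higher neuronal markers. In the main fit all 8 of 8 neuron genes passed as higher, where 13.4% of all tested genes did. Summed levels of these markers were 1334 to 1501 CPM in D3Dox_d4 and 148 to 500 CPM in NoDox_d4. Their part in the levels of the 10 genes was not tested.

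**Figure D2:**
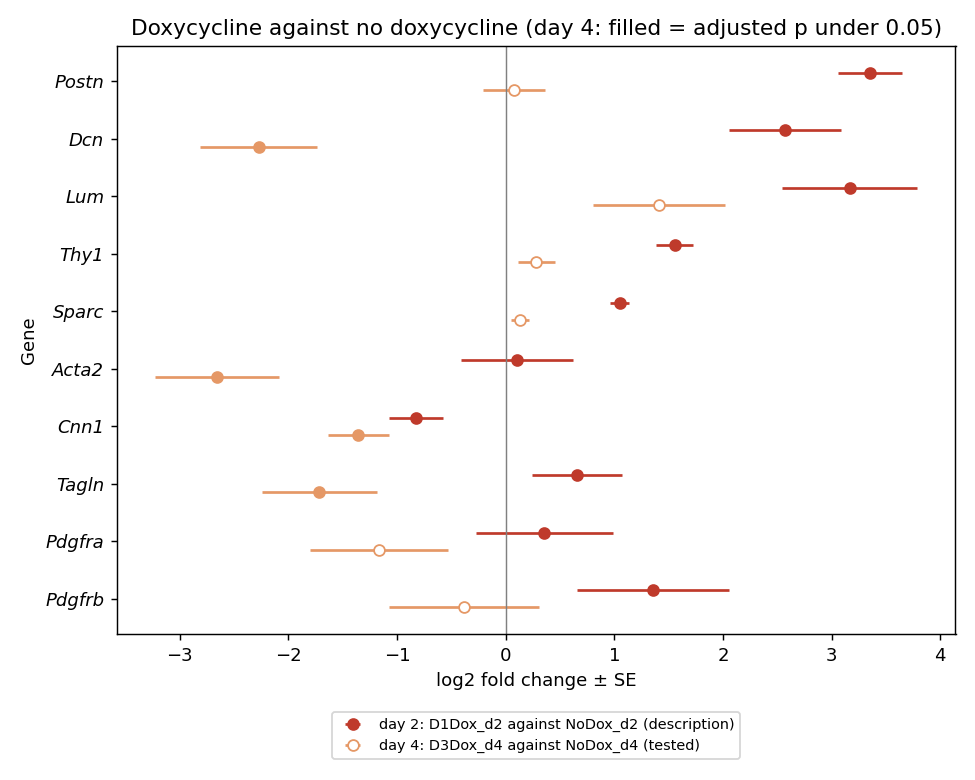
Log2 fold change (x axis, ± SE) of each gene for D1Dox_d2 against NoDox_d2 (red, description) and D3Dox_d4 against NoDox_d4 (orange; filled where the edgeR adjusted p was under 0.05). The 5 matrix and surface genes lie at 1.05 to 3.36 at day 2, while at day 4 Dcn, Acta2, Cnn1 and Tagln lie at −1.36 to −2.66.

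The comparisons across time share libraries with the day 2 comparison and are descriptions for the same reason. From NoDox_d2 to NoDox_d4, 3 of the 10 were past the threshold, all lower, where 10.6% of tested genes were past it and 5.55% as lower. They were Cnn1 (log2 fold change −3.36), Thy1 (−0.76) and Sparc (−0.55). NoDox_d4 lay wholly below NoDox_d2 for 5 of the 10: those 3, Acta2 (−1.49) and Tagln (−1.35). Of all tested genes 23.2% did not overlap, 11.7% as lower. Without NoDox_d4 replicate 1 the count was 6, with Acta2 at −2.86, Tagln at −2.10 and Postn at −1.11 added. In a fit of the NoDox libraries alone with replicates paired by number, 4 passed, of which Pdgfra was higher by 0.80.

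From D1Dox_d2 to D3Dox_d4, 8 of the 10 were past the threshold, all lower, where 44% of tested genes were past it, 21.4% as lower and 22.6% as higher. All 10 had every D3Dox_d4 library below every D1Dox_d2 library, where 65.7% of tested genes did not overlap, 32% as lower and 33.7% as higher. The log2 fold change was −4.25 for Acta2, −3.90 for Postn and Cnn1, −3.87 for Dcn, −3.72 for Tagln, −2.16 for Lum, −2.03 for Thy1 and −1.47 for Sparc. It was −1.30 for Pdgfrb and −0.52 for Pdgfra, which were not past the threshold. Both passed when the compared libraries were fitted alone (−1.32 and −0.54) and when both NoDox libraries numbered 1 were left out (−1.30 and −0.51), where the count was 10 of 10 and 61.8% of tested genes passed. Without D3Dox_d4 replicate 2, Lum also was not past it.

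Levels of different genes can be compared only per length, as fragments per kilobase of exon and library size (FPKM). On this scale Sparc was the most abundant in every group, at a mean of 200 FPKM in D1Dox_d2 and 65.6 to 96.3 FPKM in the others. Acta2 was next at day 2, with 44.7 FPKM in NoDox_d2 and 48.0 FPKM in D1Dox_d2, and was at 15.9 FPKM in NoDox_d4 and 2.52 FPKM in D3Dox_d4. Cnn1 was at 24.6 FPKM in NoDox_d2 and 0.935 FPKM in D3Dox_d4. In NoDox_d2 Postn (0.888 FPKM), Dcn (0.484 FPKM) and Lum (0.906 FPKM) were among the lowest, and in D1Dox_d2 they reached 9.10, 2.89 and 8.20 FPKM. Tagln and Pdgfra were the lowest means of D1Dox_d2, at 1.29 and 1.51 FPKM, with the overlap of Tagln exons with opposite-strand genes given above. Acta2 and Cnn1, which smooth muscle makes together with Tagln, were at 48.0 and 13.9 FPKM.

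**Figure D3:**
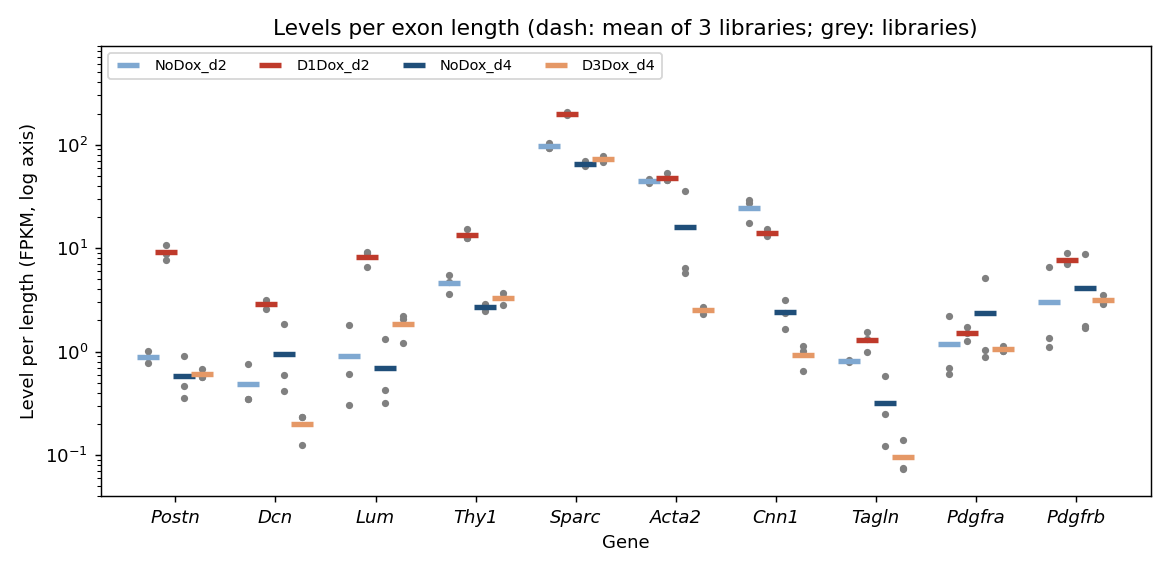
Level per exon length (FPKM, log axis) of the 10 genes; coloured dashes are the means of the 3 libraries of a group and grey points the libraries. Sparc is the highest gene in all 4 groups, and Acta2 runs from 48.0 FPKM in D1Dox_d2 to 2.52 FPKM in D3Dox_d4.

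Neighbours in the order of group means did not always differ. For Postn, Dcn, Lum, Thy1, Sparc and Tagln the D1Dox_d2 libraries were separate from the group ranked next. For Sparc and Postn NoDox_d2 came next and was separate from the day 4 groups, which overlapped each other. For Lum the other 3 groups overlapped in turn, and for Thy1 the D3Dox_d4 libraries overlapped both NoDox_d2 and NoDox_d4, its neighbours. For Dcn the NoDox groups overlapped, above a separate D3Dox_d4. For Acta2 the day 2 groups overlapped and the day 4 groups lay separately below them, and for Tagln the day 4 groups overlapped each other. For Cnn1 all 4 groups were separate, in the order NoDox_d2, D1Dox_d2, NoDox_d4 and D3Dox_d4. For Pdgfra and Pdgfrb no pair of neighbours was separate.

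Related genes show how far each pattern reached. Of all tested genes 14.9% were past the threshold as higher at day 2 and 13.4% as lower. At day 2, 5 of the 7 tested small leucine-rich proteoglycans, of 10 listed, were past the threshold as higher and none as lower, with Aspn at 3.12 ± 0.51, Bgn at 2.19 ± 0.42 and Ogn at 1.91 ± 0.66 (log2 fold change ± SE). Ogn was low throughout day 2, at 0.149 to 0.353 CPM in NoDox_d2 and 0.455 to 1.60 CPM in D1Dox_d2. Of 10 matricellular genes 7 were higher and 1 lower. Tgfbi, a TGF-beta-induced adhesion protein, was at 4.07 ± 0.51 and Tnc, tenascin C, at 3.17 ± 0.88, while Sparcl1, the closest relative of Sparc, was lower at −2.18 ± 0.23. Of 17 genes of the fibrillar matrix and its enzymes 14 were higher and none lower, led by Lox (3.90 ± 0.48), which cross-links collagen, and the collagen chains Col1a2 (3.34 ± 0.13) and Col3a1 (2.83 ± 0.77). Of 11 tested fibroblast surface and transcription factor genes, of 12 listed, 6 were higher and none lower, including Fap (3.46 ± 0.38), Prrx1 (2.59 ± 0.77) and Twist1 (2.18 ± 0.65).

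Contractile genes were mixed at day 2. Of 15 listed 5 were higher and 4 lower, with Actg2 at 1.89 ± 0.53 and Synpo2 at 1.53 ± 0.34, but Myh11, the smooth muscle myosin heavy chain, lower at −1.89 ± 0.55. Of the 4 SRF and myocardin factors, Myocd was higher (2.34 ± 0.78) and Srf lower (−0.51 ± 0.17). Myocd was barely detected, at 0.0372 to 0.212 CPM in NoDox_d2 and 0.341 to 0.650 CPM in D1Dox_d2. At this depth 3 counts equal 0.106 to 0.130 CPM. Of 6 PDGF ligands and receptors 2 were higher, Pdgfb (1.10 ± 0.18) and Pdgfc (0.67 ± 0.22). Leaving out any D1Dox_d2 replicate, or NoDox_d2 replicate 2 or 3, brought the fibroblast count from 6 to 3, the contractile count from 9 to 5 (5 higher and none lower without D1Dox_d2 replicate 1, 4 higher and 1 lower otherwise), the PDGF count from 2 to 1 and the SRF count from 2 to 0 or 1. These lists hold Postn, Dcn and the other genes chosen on this comparison, so the counts are descriptions.

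At day 4 the lists were tested in edgeR as single genes, and the medians are given beside −0.03 for all tested genes. Of all tested genes 13.4% passed as higher and 10.2% as lower. None of the 11 tested fibroblast surface and transcription factor genes, of which 3 are among the 10, passed in edgeR (median −0.84). At an unadjusted p under 0.05, 2 were lower, and DESeq2 called 1 as lower. No small leucine-rich proteoglycan rose and 1 of 7 fell, Dcn itself (median −1.21). Of the matricellular genes none rose and 5 of 10 fell (median −0.92), including Sparcl1 by 2.97 (SE 0.23, edgeR adjusted p = 7.4e-06), Ccn1 by 0.73 (SE 0.11, adjusted p = 0.000693) and Thbs1, thrombospondin, by 2.14 (SE 0.48, adjusted p = 0.00788). Of the fibrillar matrix 4 of 17 rose and 4 fell (median 0.16), and the falls depended on single libraries. Col1a2 rose by 2.96 ± 0.13 (edgeR adjusted p = 1.2e-07), from 39.8 to 49.6 CPM in NoDox_d4 to 307 to 370 CPM in D3Dox_d4. Loxl1 rose by 0.92 ± 0.21 (edgeR adjusted p = 0.00934) and Mmp2, a gelatinase, by 0.72 ± 0.17 (0.0103). Col1a2 was thus high in both doxycycline groups, at 647 to 786 CPM in D1Dox_d2. Other collagen chains differed from it at day 4. Col3a1 was at 28.7 to 322 CPM in NoDox_d4 and 16.3 to 20.9 CPM in D3Dox_d4, and Col1a1 at 27.2 to 100 and 51.6 to 62.0 CPM. Xist was at 0.627 CPM or less in D3Dox_d4. The part of cells of another source in these levels was not tested.

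Of the 15 contractile genes 2 rose and 5 fell at day 4 (median −0.45). Of the 5 that fell, 3 were Acta2, Cnn1 and Tagln themselves. Tpm2, a tropomyosin, rose by 0.71 ± 0.12 (edgeR adjusted p = 0.00172) and Csrp1, a LIM protein, by 0.84 ± 0.15 (0.00187), while Smtn, smoothelin, fell by 0.42 (SE 0.10, edgeR adjusted p = 0.00968). Of the 4 SRF and myocardin factors Srf fell by 0.51 (SE 0.17, edgeR adjusted p = 0.0460), and none rose (median −0.41). Of the 6 PDGF genes Pdgfc, a ligand of the alpha receptor, fell by 1.56 (SE 0.22, edgeR adjusted p = 0.000417), and none rose (median −0.39). Several of these counts moved with 1 library. Without D3Dox_d4 replicate 1 the matricellular count went from 5 to 3 and the fibrillar count from 8 to 4, all higher, and without replicate 2 the fibrillar count was 5, 4 higher and 1 lower. Without NoDox_d4 replicate 1 the fibrillar count was 6 higher and 1 lower. The fibroblast count then went from 0 to 2, both higher, namely Twist1 (1.20 ± 0.21, edgeR adjusted p = 0.00226) and Osr1 (1.75 ± 0.49, adjusted p = 0.0256). The proteoglycan count was 1 higher, Lum, and 1 lower, Dcn, and the PDGF count went from 1 to 2, both lower. Without NoDox_d4 replicate 3 the fibroblast count was 1 and the proteoglycan count 2, all lower. The Srf call was lost when any single D3Dox_d4 replicate, or NoDox_d4 replicate 1 or 3, was left out, and with the replicate block. Without NoDox_d4 replicate 1, Mrtfa of the same list was higher (0.45 ± 0.13, edgeR adjusted p = 0.0310).

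Markers of other cells that embryoid bodies can hold were counted in the same way. Over all tested genes the shares higher and lower were 14.9% and 13.4% at day 2 and 13.4% and 10.2% at day 4. With so few genes per list, nothing is read from the counts that follow. At day 2, 3 of 5 tested endothelial genes, 5 of 9 parietal endoderm genes, 2 of 8 streak and nascent mesoderm genes, 1 of 2 skeletal muscle genes and 2 of 8 neuron genes were past the threshold as higher. The streak list holds Mixl1 itself, the induced gene, which is 1 of the higher genes on both days. Lower genes were 3 of the streak list, 2 of 6 tested cardiomyocyte genes and 3 of 8 epiblast stem cell genes. At day 4 the counts higher and lower were 1 and 1 for endothelium, 1 and 3 for parietal endoderm, 1 and 1 for streak, 0 and 1 for skeletal muscle, 0 and 1 for cardiomyocyte and 1 and 4 for epiblast stem cell, while no sex-linked or blood gene passed in edgeR, with 1 sex-linked and 0 blood genes lower at an unadjusted p under 0.05. The summed parietal endoderm level was 956 to 1131 CPM in D1Dox_d2 and 499 to 782 CPM in NoDox_d2. At day 4 this sum was 487 to 519 CPM in NoDox_d4 and 348 to 401 CPM in D3Dox_d4. Most of the D1Dox_d2 sum was Lamb1 (314 to 346 CPM), Col4a1 (319 to 411 CPM) and Col4a2 (166 to 236 CPM), genes of basement membrane. Other genes of that list differed. Gata6 was at 21.2 to 26.0 CPM in D1Dox_d2 and 0.593 to 0.989 CPM in NoDox_d2. Gata4 was at 0.285 to 0.644 CPM in D1Dox_d2 and 0.0791 to 0.918 CPM in NoDox_d2. The summed cardiomyocyte level was 73.1 to 86.7 CPM in NoDox_d2 and 76.7 to 89.5 CPM in D1Dox_d2. At day 4 it was 17.7 to 34.8 CPM in NoDox_d4 and 8.68 to 10.9 CPM in D3Dox_d4. Most of the day 2 sum was Actc1, the near-identical actin named above. Nkx2-5, Tnnt2 and Myl7 of that list were at 0.986 CPM or less in every library. The part of parietal endoderm or heart cells in the levels of Sparc and Acta2 was not tested.

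For each gene, the 2 tested genes with the most similar profile were found by Pearson's r of log2 CPM over the 12 libraries, which share groups and depth. They were Milr1 (0.984) and Ociad2 (0.980) for Postn, Stab1 (0.976) and Dnajc25 (0.973) for Dcn, and Slc25a10 (0.992) and Gng11 (0.983) for Lum. For Thy1 they were Rapgef5 (0.984) and Nabp1 (0.984), and for Sparc Col6a2 (0.994), a collagen VI chain, and Sh3bgrl2 (0.991). For the contractile genes they were Actc1 (0.988) and Orc1 (0.986) for Acta2, Pdlim7 (0.986) and Fam98a (0.980) for Tagln, and Aaas (0.990) and Akap12 (0.984) for Cnn1. For the receptors they were Pik3r2 (0.971) and Trp53bp2 (0.963) for Pdgfra, and Tor1aip1 (0.985) and Fmod (0.977), another small leucine-rich proteoglycan, for Pdgfrb. Fmod was at 4.06 CPM in NoDox_d2 replicate 1 and 5.25 CPM in NoDox_d4 replicate 1 but at most 0.154 CPM in the other NoDox libraries.

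Promoter windows of 250 bases before the annotated start were taken from RefSeq (GRCm38.p6), which held 6 windows for 5 of the 10 genes. One window is shown for each of the 3 patterns, without exon bases. The sequences of a day 2 matrix gene, a contractile gene and a receptor can thus be set side by side. Those of Postn and Cnn1 matched a transcript in the direction of the gene. For Pdgfra that check found no match, so its direction is not verified. Capitals mark the motif TATAAA. The Postn window is chr3:54360857-54361106, that of Cnn1 chr9:22099003-22099215 and that of Pdgfra chr5:75152001-75152250, all on the plus strand.
Postn: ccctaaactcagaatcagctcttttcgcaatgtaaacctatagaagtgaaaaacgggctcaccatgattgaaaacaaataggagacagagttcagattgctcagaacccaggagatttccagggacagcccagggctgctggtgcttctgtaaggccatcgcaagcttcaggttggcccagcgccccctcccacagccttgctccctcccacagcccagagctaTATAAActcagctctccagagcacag
Cnn1: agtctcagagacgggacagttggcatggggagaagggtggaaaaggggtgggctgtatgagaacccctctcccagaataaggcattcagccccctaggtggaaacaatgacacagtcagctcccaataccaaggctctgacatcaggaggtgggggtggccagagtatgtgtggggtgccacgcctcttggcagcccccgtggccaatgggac
Pdgfra: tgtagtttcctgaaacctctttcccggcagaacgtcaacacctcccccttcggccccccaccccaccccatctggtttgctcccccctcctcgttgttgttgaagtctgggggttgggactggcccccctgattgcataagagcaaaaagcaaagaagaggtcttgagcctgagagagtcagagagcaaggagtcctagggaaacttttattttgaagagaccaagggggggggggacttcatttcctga

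The motifs searched on either strand were the CArG box that SRF binds (CC, 6 bases of A or T, GG), GGAATG, the core bound by TEAD factors, and TATAAA. Of 32851 promoter windows of this length, 1.47% held the CArG box, 12.6% GGAATG and 12.4% TATAAA. The second Postn window held TATAAA, starting 26 bases before the annotated start. The windows shown for Cnn1 and Pdgfra held none of the 3. The Acta2 window is not described, since 217 of its 250 bases are exonic in the annotation of the counts.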

How the data were processed

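RNA from 12 samples was sequenced as paired 150 bp reads after NEBNext Ultra II preparation and trimmed with Trim Galore to a 50 bp minimum, per the labels' protocols. Per the submitters' processing notes, the tools were STAR, featureCounts and DESeq2 and the builds GRCm38 and mm10. The authors deposited 1 table of unnormalized counts, in which featureCounts 2.0.1 assigned read pairs to GENCODE vM25 genes with no strand option, per the file headers, so sense and antisense reads were counted alike. Symbols were found for 55141 of 55487 genes.

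Counts were fitted in edgeR 4.0.16 (limma 3.58.1, R 4.3.3) with TMM, filterByExpr, one coefficient per group and all 12 libraries (8 residual degrees of freedom). P-values were adjusted by Benjamini-Hochberg over 18109 genes, with calls under 0.05. The SE is the size of the log2 fold change over the square root of F. FPKM was computed from the deposited exon lengths. Similar profiles used log2 CPM with a prior count of 2. The fit was tested on simulated data.

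The 10 genes and all lists were chosen with earlier results of these data known. Named were the 10 genes, Mixl1, the genes most like each of the 10, and per list up to 3 called genes by adjusted p at day 4 and up to 3 by fold at day 2. Xist, the Y-linked genes, Lyz2, Ptprc, the close copies of Acta2, T, Tbx6, Msgn1, Osr1 and Mrtfa were added from the lists after their values were seen. So were Lamb1, Col4a1, Col4a2, Gata4 and Gata6.

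Replicate numbers were checked for pairing. Deviations from the group means of same-numbered NoDox_d2 and NoDox_d4 libraries correlated at 0.545, 0.361 and 0.308. These libraries were paired by number, from the data and not from the labels, only in alternative fits. The main fit had no pairing. Replicate 1 stood apart in both NoDox groups and enters the group means, which shifts the deviations of the other replicates alike in both groups. The correlations therefore cannot decide whether the libraries were paired. Other comparisons did not reach 0.1 for every pair. The fit was repeated with other scaling (DESeq2 size factors or upper quartiles), with the filter dropped or set to 1 CPM in 3 libraries, with the Wald test of DESeq2 1.42.0, with the replicate block, on the compared libraries alone, and without each library in turn or both NoDox libraries numbered 1. The fit of the NoDox libraries alone with the block and the ratios without NoDox_d2 replicate 1 were chosen after seeing the data.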

Additional observations from a re-analysis of the deposited data

Results flagged for a closer look

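Dcn moved in opposite directions on the 2 days. Its log2 fold change was 2.58 at day 2, with all D1Dox_d2 libraries above all NoDox_d2 libraries, and −2.27 at day 4, with all D3Dox_d4 libraries below all NoDox_d4 libraries. The difference between the days was not tested.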

How the results depend on the processing

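Single-gene values kept their direction and their side of the threshold in 130 of 139 alternative values for D1Dox_d2 against NoDox_d2, 119 of 138 for D3Dox_d4 against NoDox_d4, 132 of 149 for NoDox_d4 against NoDox_d2 and 134 of 139 for D3Dox_d4 against D1Dox_d2. Leaving out 1 library at a time gave 5 to 7, 3 to 4, 2 to 6 and 7 to 8 calls among the 10 genes in these comparisons. From NoDox_d2 to NoDox_d4 the count was 1 when other groups were kept out of the model and 8 without both NoDox libraries numbered 1. The cause was not tested. Some values changed sign when 1 library was left out. At day 4 the log2 fold change then ranged from −0.17 to 0.57 for Postn (below 0 without D3Dox_d4 replicate 3 or NoDox_d4 replicate 2 or 3), from −1.56 to 0.13 for Pdgfra and from −0.75 to 0.85 for Pdgfrb (both above 0 without NoDox_d4 replicate 1). Pdgfrb was at 0.080 with the replicate block, and Pdgfra and Pdgfrb were at 0.13 and 0.85 without both NoDox libraries numbered 1. Over time without doxycycline the range was −1.29 to 0.57 for Lum (above 0 without NoDox_d2 replicate 1), −0.28 to 1.87 for Pdgfra and −0.79 to 1.72 for Pdgfrb (both below 0 without NoDox_d4 replicate 1). Among the 10 genes the replicate block changed no other call beyond those given for Pdgfrb at day 2, Lum and Tagln at day 4 and, in the fit of NoDox libraries alone, Pdgfra. In the lists it moved the day 2 counts to 4 (proteoglycans), 8 (fibroblast), 10 (contractile) and 3 (PDGF), and the day 4 counts to 2 (proteoglycans), 7 (fibrillar) and 0 (SRF factors). DESeq2 gave no adjusted p for Acta2, and Tagln did not pass the filter in the day 4 fit of the compared libraries alone. Over all genes, 5136 day 2 calls became 3048 to 3371 when replicate 2 or 3 of either day 2 group was dropped. Other scalings moved none of 80 values of group means by more than 1 SD, the largest ratio being 1.03. Depth limits Tagln at day 4, at 4 to 29 counts per library.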
